A study of Homo sapiens with 9 samples.

Results

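The nuclear genes that encode the proteins of the mitochondrial ribosome were examined in the line MIA PaCa-2, which was established from a pancreatic carcinoma. They were taken as the protein-coding genes whose symbols begin with MRPL or MRPS and a number, which gave 78 genes of the 58735 in the table, or of its 19951 protein-coding genes. Of these, 49 are named for the large subunit (MRPL) and 29 for the small subunit (MRPS). Before harvest, cultures received the ERK1/2 inhibitor SCH772984 (1 μM), compound 1, an inhibitor of TBK1 and IKKε (1 μM), or 0.1% DMSO, each for 24-h. All cells carried the genotype label WT, and no gene had been altered. There were 3 libraries per condition, and all values come from 1 cell line and 1 time point.

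The mitochondrial ribosome makes the few proteins that the mitochondrial genome encodes, all of them subunits of the respiratory chain and of ATP synthase. Its rRNAs come from mitochondrial DNA, whereas every one of its proteins is encoded in the nucleus, made in the cytosol and imported. Many of these proteins have bacterial counterparts, and others are found only in mitochondria. Cells that respire need the whole particle, since a ribosome lacking one subunit makes no protein.

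Library totals were 9464432 to 13887859 counts. Gene positions are those of the table, on GRCh38 and identical to GENCODE 29. Levels below are CPM (reads of a gene relative to the effective total of its library) after TMM normalization, and a gene was called at an adjusted p under 0.05 in edgeR. Mitochondrially encoded genes took 3.33 to 3.98% of counts in DMSO, 3.41 to 3.92% with compound 1 and 6.23 to 7.52% with SCH772984. Compound 1 replicate 1 stood apart from the other 2 libraries of its group (chi-square per degree of freedom 11.1 and 8.29, against 2.78 between those 2). The labels do not say whether libraries came from separate cultures, so p-values cover the spread between these libraries. The 6 ERK output genes chosen as a check (DUSP6, SPRY4, ETV4, ETV5, EGR1 and FOSL1) all fell with SCH772984, and 0 of 6 were called with compound 1. The cell line expressed KRT18 (879 ± 46.3 CPM in DMSO, SD, n = 3) and VIM (2473 ± 91.3), both known from this line. PTPRC and EPCAM, the leukocyte and epithelial surface markers, had 0 counts in all 9 libraries, and COL1A2 was at 481.5 ± 24.3 CPM in DMSO. Of the 13 marker genes listed, 8 were tested with SCH772984, and 2 rose and 5 fell. Of the 6 epithelial markers, KRT18 (-2.4 ± 0.06), KRT8 (-1.69 ± 0.06) and CLDN4 (-0.66 ± 0.08) fell, KRT19 was at 0.11 ± 0.07, and the summed level was 3530 to 3806 CPM in DMSO, 3024 to 3821 CPM with compound 1 and 1170 to 1321 CPM with SCH772984. Of the 6 markers of other cell types, the collagen genes COL1A2 (1.1 ± 0.06) and COL1A1 (3.36 ± 0.48) rose, the monocyte marker CD14 fell (-1.29 ± 0.35), and PECAM1 and LUM had at most 1 count in any library. Their summed level, nearly all of it COL1A2, was 460.2 to 508.7 CPM in DMSO, 469.2 to 534 CPM with compound 1 and 986.1 to 1115 CPM with SCH772984. VIM, the mesenchymal marker, changed by -0.23 ± 0.06. These markers thus changed with SCH772984 in both directions, and their part in the changes of the ribosomal protein genes below was not tested. With compound 1, 0 of 7 tested markers were called.

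In DMSO the mitochondrial ribosomal protein mRNAs were well expressed. Per kilobase of deposited gene length, the median level was 22.0 CPM over the 78 genes, beside 4.66 over the 13834 genes tested. It was 22.9 for the large and 20.3 for the small subunit. That length covers all annotated exon bases of a gene and not a single transcript, so genes with long annotated exons can stand lower. MRPL42, for example, had 48.0 CPM over 16393 bases, or 2.93 CPM per kb. The order was led by MRPL41 (121 ± 2.0 CPM per kb, SD, n = 3) and MRPL3 (105 ± 0.63), followed by MRPL37 (91.5 ± 2.7), MRPL51 (90.2 ± 5.2) and MRPL14 (73.1 ± 2.7). MRPL3 is a conserved protein near the peptidyl transferase centre, and MRPL41, MRPL37 and MRPL51 are found only in mitochondria. The lowest were MRPL23 (2.23 ± 0.28 CPM per kb), MRPS28 (2.20 ± 0.055), MRPL38 (1.66 ± 0.32), MRPL46 (1.24 ± 0.15) and MRPS24 (0.331 ± 0.31). In the order by level, 60 of the 77 neighbouring pairs overlapped in their library ranges, so single ranks are mostly not resolved.

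**Figure D1:**
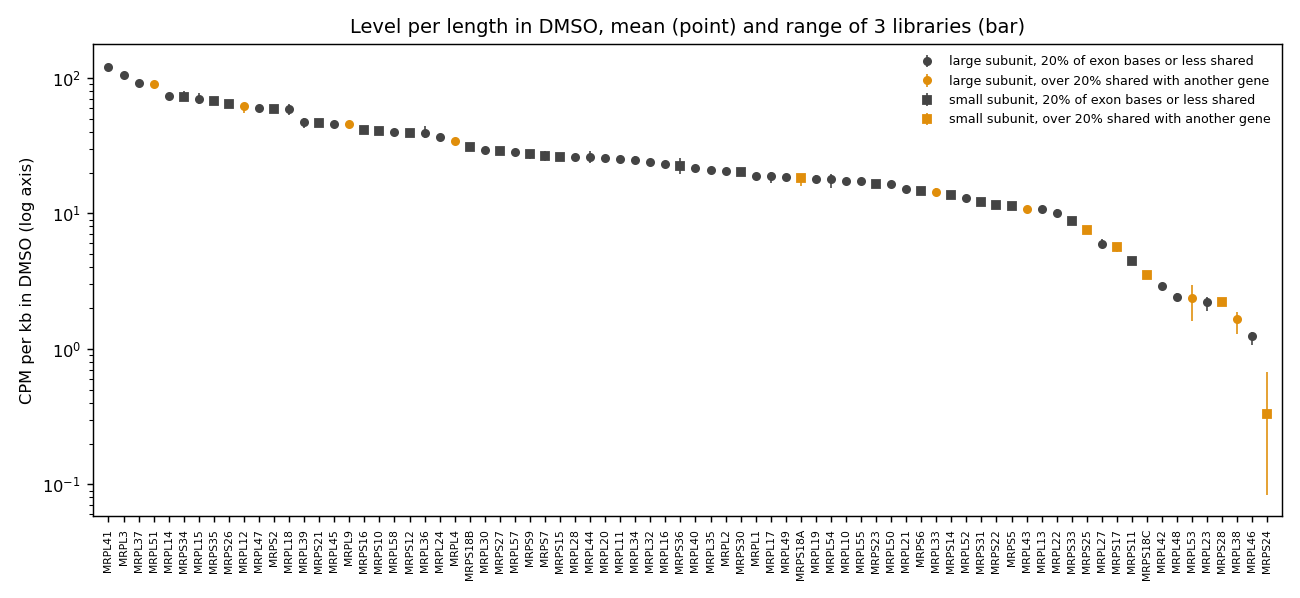
Level of the 78 genes in DMSO as CPM per kilobase of deposited gene length (all annotated exon bases) on a log axis. Points are means and bars the range of 3 libraries, by subunit and by the share of exon bases that lie in another annotated gene. Most genes lie within a gentle slope from 121 down to about 10 CPM per kb, and a tail of low genes ends in MRPS24 at 0.331.

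Several of the low genes sit inside other gene models. The reads of such genes can be split or discarded when counted, and how the authors treated them is not given in the sources used here. Of the 78 genes, 14 shared over 20% of their exon bases with another annotated gene, and 8 shared over 50% of their coding bases. Of the 10 lowest levels per length, 5 belonged to genes sharing over 50% of their coding bases. For MRPS24 (chr7:43866558-43869893, minus strand), 92.2% of coding bases lie in the read-through gene URGCP-MRPS24. Its counts were 6, 16 and 2 in DMSO, 7, 4 and 3 with compound 1 and 9, 8 and 11 with SCH772984, and it was the 1 gene of 78 that failed the filter on low counts. Partners on the opposite strand cover 47.0% of the exon bases of MRPS18A, 31.3% of MRPL51 and 21.4% of MRPL4, and the strand setting of the counting is not given in the sources used here. The other 77 genes were tested in each comparison.

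SCH772984 lowered most of the mitochondrial ribosome's mRNAs. Of the 77 genes tested, 64 fell and 3 rose, beside 35.5% of all tested genes lower and 37.2% higher (adjusted p under 0.05, edgeR). The median log2 fold change was -0.53, against 0.03 over all genes, and the middle of the distribution lay between -0.74 and -0.28. With an unadjusted p under 0.05, 65 were lower and 3 higher (36.2% and 38% of all genes). All 3 SCH772984 libraries lay below all 3 DMSO libraries for 64 genes and above them for 3 (36.4% and 38% of all genes). The 10 genes not called were MRPL22, MRPL23, MRPL27, MRPL38, MRPL40, MRPL46, MRPS15, MRPS25, MRPS28 and MRPS36, with values of -0.35 to 0.17. In bulk RNA, a lower level in each cell and fewer cells with the RNA cannot be told apart. The call of the 64 is relative to the whole transcriptome: scaled by library size only, the median over all genes moved up by 0.17, 54 of the 77 were lower and 4 higher, and calls over all genes went from 5150 higher and 4916 lower to 6242 and 3911. Relative to all genes, the median of the 77 was -0.56 under both scalings.

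**Figure D2:**
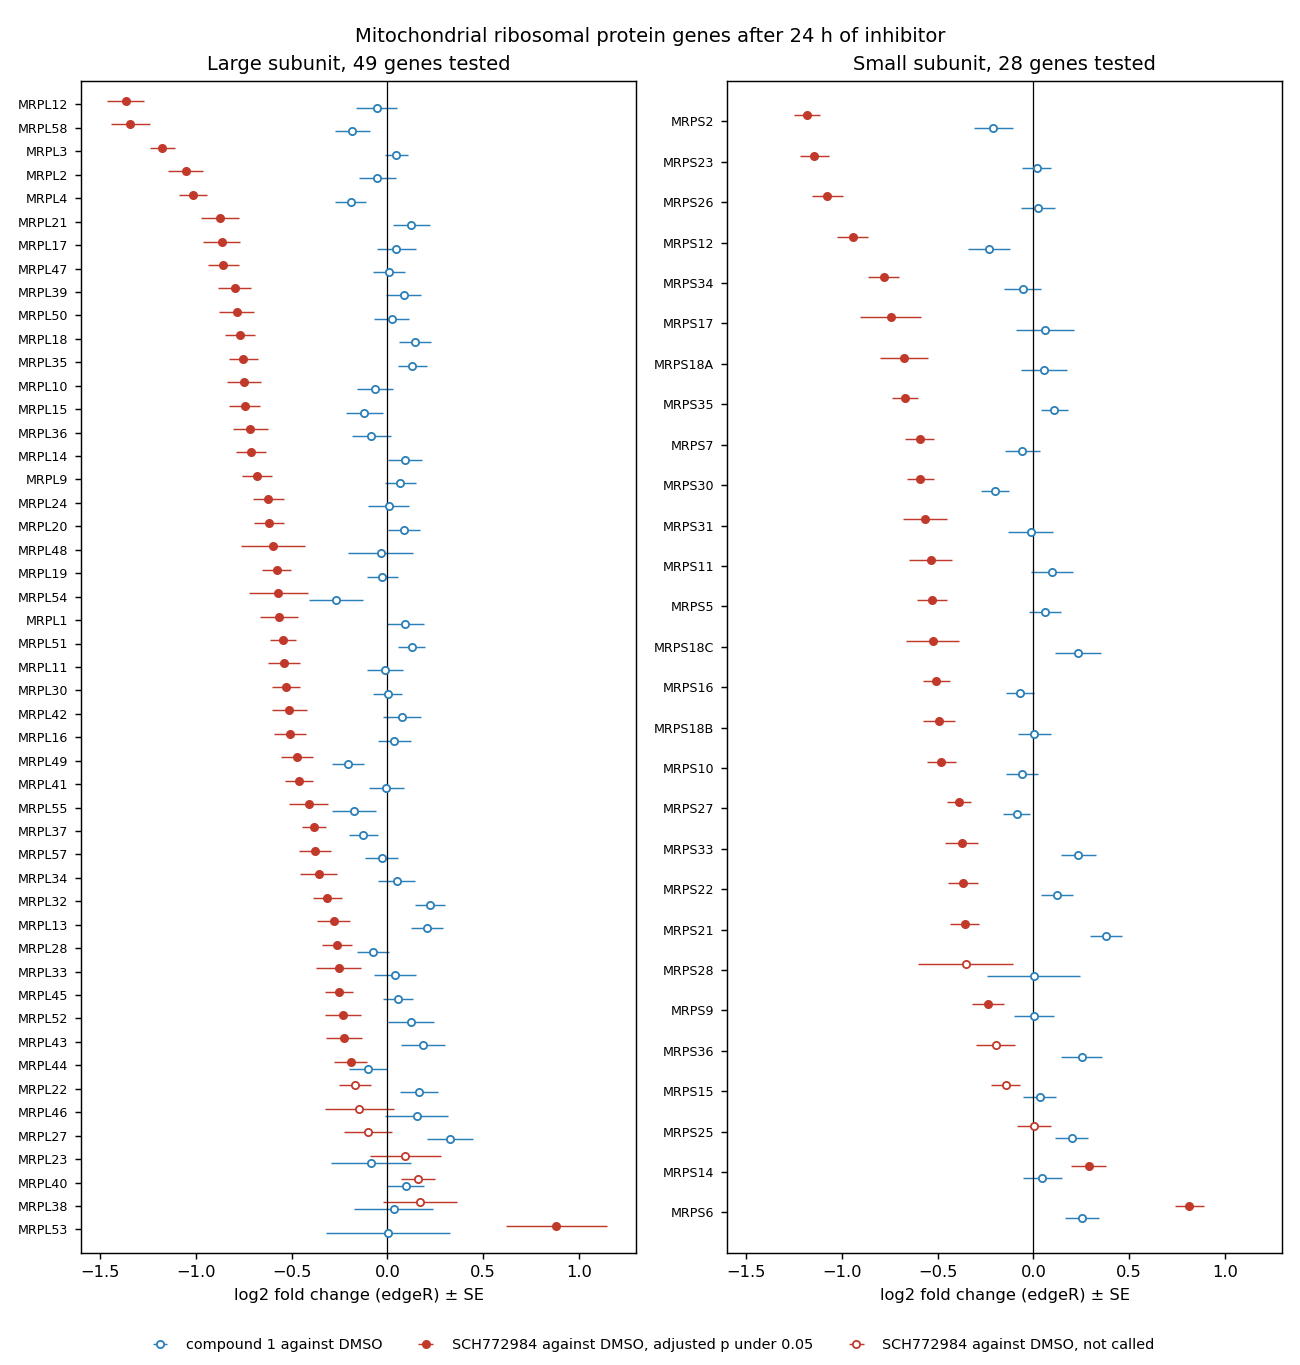
Log2 fold change ± SE (edgeR) of the 77 tested genes, large subunit on the left and small subunit on the right, ordered by the change with SCH772984. Red points for SCH772984 lie left of 0 for 70 of 77 genes, and blue points for compound 1 lie close to 0, between -0.27 and 0.38.

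Of the 64, 8 fell by more than 1 on the log2 scale and 0 genes rose by as much, beside 10.6% and 18.2% of all tested genes, so the count of large falls among the 77 was near the background. MRPL12 (ENSG00000262814, chr17:81703357-81707526, plus strand), the counterpart of the bacterial stalk protein L7/L12 that recruits translation factors, fell furthest. Its level was 56.8, 67.0 and 65.9 CPM in DMSO, 69.1, 51.2 and 61.9 CPM with compound 1 and 28.4, 24.0 and 21.6 CPM with SCH772984. The SCH772984 libraries were all below the other 6, while those of compound 1 lay on both sides of DMSO. The log2 fold change with SCH772984 was -1.37 ± 0.10 (SE, n = 3 per group, adjusted p = 1.01e-16, edgeR). Of the exon bases of MRPL12, 68.2% lie in a second gene model on the same strand, AC139530.2, which was not tested, and reads of the pair cannot be told apart there.

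MRPL58 (ENSG00000167862, chr17:75012670-75021261, plus strand) is a peptidyl-tRNA hydrolase built into the large subunit, where it can release stalled chains. It stood at 41.7, 45.4 and 44.4 CPM in DMSO, 40.9, 36.6 and 38.1 CPM with compound 1 and 15.6, 18.4 and 17.9 CPM with SCH772984. The change with SCH772984 was -1.34 ± 0.10 (adjusted p = 5.53e-16). The compound 1 libraries were also all below DMSO, by a far smaller margin (-0.18 ± 0.09, adjusted p = 0.361).

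MRPL3 (ENSG00000114686, chr3:131462212-131502983, minus strand) had both a high level and a large fall. It was at 284, 287 and 286 CPM in DMSO, 296, 289 and 298 CPM with compound 1 and 132, 134 and 116 CPM with SCH772984, a log2 fold change of -1.17 ± 0.06 (adjusted p = 1.1e-20). The DMSO and compound 1 libraries lay within a narrow band, and SCH772984 took the level below that band in all 3 libraries. The fall in MRPL3 alone made up 9.79% of the net fall in the summed level of the 78 genes. MRPL2 and MRPL4, conserved proteins close to the catalytic centre and the wall of the exit tunnel, fell by similar amounts. MRPL2 (chr6:43054029-43059806, minus strand) went from 54.1, 51.1 and 51.5 CPM in DMSO to 24.5, 23.7 and 27.2 CPM (-1.05 ± 0.09, adjusted p = 3.2e-14), and MRPL4 (chr19:10251901-10260045, plus strand) from 137, 145 and 137 CPM to 70.5, 62.5 and 74.6 CPM (-1.01 ± 0.07, adjusted p = 7.65e-17).

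In the small subunit the largest falls were in MRPS2, which is conserved from bacteria, and in MRPS23 and MRPS26, which are found only in mitochondria. MRPS2 (ENSG00000122140, chr9:135499984-135504673, plus strand) was at 146, 148 and 145 CPM in DMSO, 150, 104 and 125 CPM with compound 1 and 64.2, 62.4 and 66.8 CPM with SCH772984 (-1.18 ± 0.07, adjusted p = 7.89e-20). MRPS23 (ENSG00000181610, chr17:57834781-57850056, minus strand) was at 103, 105 and 106 CPM in DMSO and 51.0, 43.7 and 47.9 CPM with SCH772984 (-1.14 ± 0.08, adjusted p = 5.92e-18). MRPS26 (ENSG00000125901, chr20:3045945-3048254, plus strand) was at 74.4, 74.2 and 69.7 CPM in DMSO and 35.0, 35.1 and 33.9 CPM with SCH772984 (-1.08 ± 0.08, adjusted p = 4.72e-16). In none of these did the SCH772984 and DMSO libraries overlap. With compound 1, MRPS2 spread widely between libraries, from below to just above the DMSO range.

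The other 3 genes called went the opposite way. MRPS6 (ENSG00000243927, chr21:34073224-34143034, plus strand), a conserved small subunit protein, was at 63.4, 64.1 and 61.2 CPM in DMSO, 83.4, 66.8 and 74.2 CPM with compound 1 and 120, 112 and 101 CPM with SCH772984. SCH772984 lay highest, compound 1 between, and no group overlapped another. The rise with SCH772984 was 0.81 ± 0.07 (adjusted p = 2.99e-13), and with compound 1 the value was 0.25 ± 0.09 (adjusted p = 0.187). SLC5A3, an inositol transporter gene within the MRPS6 locus on the same strand, shares 6.35% of the exon bases and 12% of the coding bases of MRPS6. It was at 138, 117 and 130 CPM in DMSO and 435, 453 and 415 CPM with SCH772984, a rise of 1.75 ± 0.07 (adjusted p = 1.06e-26). Another gene model on the same strand, AP000317.2, covers 49.3% of the coding bases of MRPS6 and had 1 count over all libraries. The part of either gene in the MRPS6 count was not tested.

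MRPS14 (ENSG00000120333, chr1:175010789-175023425, minus strand), a conserved protein of the small subunit's head, rose less. It was at 36.6, 33.4 and 37.1 CPM in DMSO and 48.5, 40.6 and 42.0 CPM with SCH772984 (0.29 ± 0.09, adjusted p = 0.00454), with no overlap between the groups. This call was lost without DMSO replicate 2, where the value was 0.22, without SCH772984 replicate 1 (0.19) and with the trend with gene length removed (0.18). MRPL53 (ENSG00000204822, chr2:74471958-74473322, minus strand), a mitochondria-specific protein of the large subunit, was low throughout, at 2.15, 3.97 and 3.5 CPM in DMSO, 4.84, 2.61 and 2.18 CPM with compound 1 and 4.15, 8.5 and 5.15 CPM with SCH772984. Its change of 0.88 ± 0.26 (adjusted p = 0.00303) was lost without SCH772984 replicate 2, where it was 0.54. All of its coding bases (100%) lie in CCDC142 on the same strand, and CCDC142 rose by 0.94 ± 0.14 (adjusted p = 1.31e-07), so the 2 genes cannot be told apart from these counts.

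**Figure D3:**
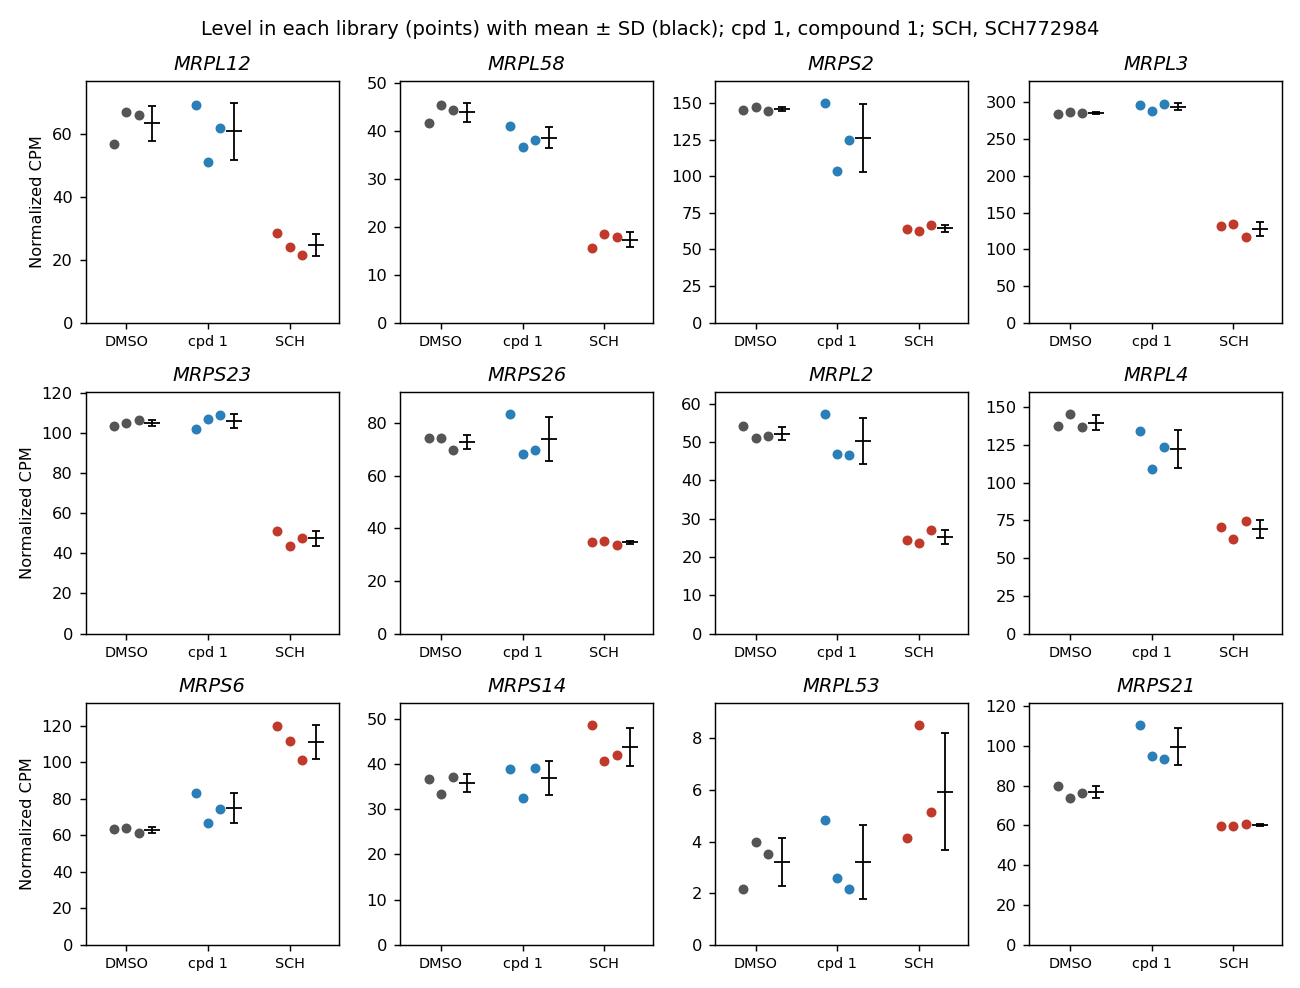
Normalized CPM in each of the 9 libraries for the 8 genes that fell most with SCH772984, the 3 that rose and MRPS21, with black marks for mean ± SD (n = 3). In the upper 8 panels the 3 SCH772984 libraries lie below all other libraries, and in the MRPS6 panel they lie above them.

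As most of the 77 genes moved together, the sequences before their transcription starts were read from the RefSeq promoter table (GRCh38.p14, 250 bases before to 50 after the start), which held 69 of the 78. The letters CGGAAG, the core recognised by ETS factors such as GABPA, were found on either strand in 37 of 69 (53.6%), in 33.6% of 9810 tested genes with an entry and in 19.9% of all 27305 promoters. The YY1 letters ATGGCGG were in 34.8% of the 69, 10.8% of tested genes and 5.72% of all, and the NRF1 letters GCATGCG in 10.1%, 6.76% and 4.13%. The Sp1 letters GGGCGG were in 60.9% of the 69, 71.7% of tested genes and 44.6% of all, the E-box CACGTG in 8.7%, 10.3% and 7.43%, and TCGCGA in 2.9%, 6% and 3.16%. Large and small subunit promoters held CGGAAG in like shares, 54.8% and 51.9%. The median change with SCH772984 was -0.53 for the 37 genes with CGGAAG, 32 of which fell, and -0.53 for the 31 tested genes without it, 26 of which fell. A match is a description of letters and not of a bound site.

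The 100 bases before the RefSeq start are shown for 5 genes among those lowered most by SCH772984 whose window held the ETS letters, 5′ to 3′ on the strand of the gene, with CGGAAG or its complement CTTCCG in capitals. They lie at chr17:75012570-75012669 (plus strand) for MRPL58, chr9:135500582-135500681 (plus strand) for MRPS2, chr3:131502972-131503071 (minus strand) for MRPL3, chr17:57850045-57850144 (minus strand) for MRPS23 and chr20:3045952-3046051 (plus strand) for MRPS26. The GENCODE gene begins further upstream than the RefSeq start for MRPS2, MRPL3, MRPS23 and MRPS26, so that their windows overlap it.
MRPL58: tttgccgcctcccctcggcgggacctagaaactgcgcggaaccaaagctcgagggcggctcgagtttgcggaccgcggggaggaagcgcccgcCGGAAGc
MRPS2: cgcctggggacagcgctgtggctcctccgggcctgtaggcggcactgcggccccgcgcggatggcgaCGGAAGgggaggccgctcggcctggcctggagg
MRPL3: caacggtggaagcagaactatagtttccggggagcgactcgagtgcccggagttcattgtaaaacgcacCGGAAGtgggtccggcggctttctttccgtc
MRPS23: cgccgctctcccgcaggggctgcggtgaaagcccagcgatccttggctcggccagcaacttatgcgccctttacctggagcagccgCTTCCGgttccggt
MRPS26: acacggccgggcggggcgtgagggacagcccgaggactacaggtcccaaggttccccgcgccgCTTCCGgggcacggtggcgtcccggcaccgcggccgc
The letters start 7, 33, 31, 14 and 37 bases before the transcription start in these 5 genes. For contrast, the same window is shown for MRPL12, which fell furthest, and for MRPS6 and MRPS14, which rose. These lie at chr17:81703267-81703366 (plus strand), chr21:34073478-34073577 (plus strand) and chr1:175023426-175023525 (minus strand), and none of the 3 holds the ETS letters there. The windows of MRPL12 and MRPS6 also overlap their GENCODE genes, as do those of MRPL53 and MRPS21.
MRPL12: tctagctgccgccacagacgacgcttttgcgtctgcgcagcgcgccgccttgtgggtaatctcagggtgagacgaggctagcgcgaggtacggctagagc
MRPS6: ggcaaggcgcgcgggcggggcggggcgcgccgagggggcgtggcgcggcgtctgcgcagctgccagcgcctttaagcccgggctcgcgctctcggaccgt
MRPS14: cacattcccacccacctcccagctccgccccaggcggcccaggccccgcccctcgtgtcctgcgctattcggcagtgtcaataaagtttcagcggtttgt
Genes with and without the letters are thus found on both sides: MRPL53, which rose, has 2 copies in its window, at chr2:74472681-74472780 (minus strand), and MRPS21, which the inhibitors moved apart, has 1, at chr1:150293761-150293860 (plus strand).
MRPL53: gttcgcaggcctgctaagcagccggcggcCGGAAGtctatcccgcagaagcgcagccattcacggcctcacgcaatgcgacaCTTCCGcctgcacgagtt
MRPS21: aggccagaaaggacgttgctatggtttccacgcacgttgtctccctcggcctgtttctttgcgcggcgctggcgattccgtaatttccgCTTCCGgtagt

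By position in the ribosome, falls were found in each of the groups examined, whose counts stand beside the 35.5% of all tested genes called lower. All 3 stalk genes fell, with MRPL10 at -0.75 ± 0.09 (adjusted p = 3.96e-10) and MRPL11 at -0.54 ± 0.08 (adjusted p = 2.67e-07) beside MRPL12. Around the exit of the protein tunnel, 5 of 7 fell, with a median of -0.25, led by MRPL17 (-0.87 ± 0.10, adjusted p = 8.13e-11). In the central protuberance, which contacts the small subunit, 4 of 8 fell, a count close to that share, and the median was -0.28, with MRPL58 at one end and MRPL40 at 0.16 ± 0.09 (adjusted p = 0.0982) and MRPL38 at 0.17 ± 0.19 (adjusted p = 0.43) at the other. Of the large subunit proteins with bacterial counterparts, 27 of 30 fell (median -0.62), and of the 19 others named for that subunit 15 fell and 1 rose (median -0.39). In the small subunit, 11 of 15 tested with bacterial counterparts fell and 2 rose (median -0.51), and 9 of the 10 mitochondria-specific ones fell (median -0.53). These groups share genes and were not tested against each other.

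Some genes carry a name that does not match the place of the protein. MRPS30 and MRPS18A sit in the large subunit in structures of the human mitochondrial ribosome, and MRPS36 is now known as a subunit of the 2-oxoglutarate dehydrogenase complex. MRPS30 went from 132, 129 and 117 CPM in DMSO to 84.3, 82.4 and 85.0 CPM with SCH772984 (-0.59 ± 0.07, adjusted p = 3.2e-10). MRPS36 was at 39.4, 29.9 and 33.6 CPM in DMSO and 32.5, 29.5 and 28.1 CPM with SCH772984, overlapping groups and no call (-0.20 ± 0.10, adjusted p = 0.076). The 3 MRPS18 paralogs, 1 ancestral protein in 3 copies with separate places in the ribosome, all fell, MRPS18A by 0.68, MRPS18C by 0.53 and MRPS18B by 0.49 on the log2 scale.

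The medians of the large and small subunits lay close together. The median was -0.54 over 49 large subunit genes, 42 of which fell, and -0.52 over 28 small subunit genes, 22 of which fell. Summed over the 49 large subunit genes, the level was 3208, 3222 and 3129 CPM in DMSO, 3438, 3011 and 3193 CPM with compound 1 and 2154, 2055 and 2147 CPM with SCH772984. Summed over the 29 small subunit genes, it was 1979, 1957 and 1924 CPM in DMSO, 2115, 1847 and 1920 CPM with compound 1 and 1437, 1378 and 1384 CPM with SCH772984. The mean change from DMSO was thus -33.5% for the large and -28.3% for the small subunit with SCH772984, and 0.873% and 0.378% with compound 1. As a share of all counts in the library, which no normalization touches, the 78 genes took 0.488 to 0.493% in DMSO, 0.483 to 0.530% with compound 1 and 0.369 to 0.384% with SCH772984.

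The ratio of the large to the small subunit sum was 1.62 to 1.65 in DMSO, 1.63 to 1.66 with compound 1 and 1.49 to 1.55 with SCH772984. The SCH772984 libraries did not overlap DMSO, and their mean ratio was 0.928 of that in DMSO. With every gene weighted equally the relative ratio was 0.962, and the groups again did not overlap. Without MRPS6 it was 0.975, with SCH772984 at 1.62 to 1.67 and DMSO at 1.68 to 1.70, and the small subunit sum then changed by -31.8%. Without MRPL3 it was 0.958, with SCH772984 at 1.39 to 1.47 and DMSO at 1.48 to 1.5. These genes were picked after the values were seen, as the largest rise in the small and the largest fall in the large subunit sum, so leaving out both had to raise the ratio. It was then 1.007, and the SCH772984 libraries (1.52 to 1.58) overlapped DMSO (1.53 to 1.55). With MRPS30 and MRPS18A counted in the large subunit and MRPS36 left out, the ratio was 1.87 to 1.90 in DMSO and 1.72 to 1.79 with SCH772984. The counts of the mitochondrial rRNAs that these proteins bind moved the other way. The study names an mRNA sequencing service, and how far its libraries capture these rRNAs was not tested. The values below therefore describe captured reads. MT-RNR2, the large subunit rRNA, was at 5714, 6396 and 6406 CPM in DMSO and 15471, 17243 and 14282 CPM with SCH772984 (1.34 ± 0.07, adjusted p = 1.25e-21). MT-RNR1, the small subunit rRNA, was at 496, 493 and 617 CPM in DMSO and 727, 800.2 and 800.1 CPM with SCH772984 (0.53 ± 0.07, adjusted p = 3.74e-08). The higher share of mitochondrial counts with SCH772984 moves with the fall of the 78 genes, and its part in that fall was not tested.

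**Figure D4:**
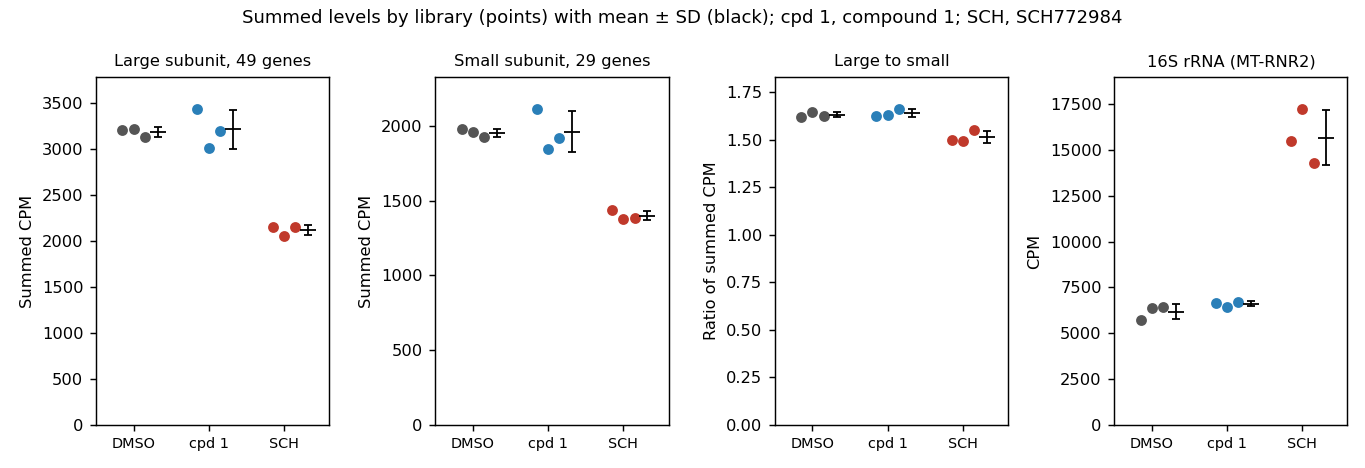
Summed CPM of the large (49 genes) and small (29 genes) subunit, their ratio, and CPM of the large subunit rRNA MT-RNR2 in each library, with mean ± SD (n = 3) in black and all axes from 0. Both sums are lower in the 3 SCH772984 libraries, and the CPM of the rRNA is higher. The ratio drops from 1.62 to 1.65 in DMSO to 1.49 to 1.55.

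With compound 1 these genes stayed near their DMSO level. Of 77 genes, 1 rose and 0 fell, beside 0.49% of all tested genes higher and 0.374% lower, and the median was 0.03 against 0.00 over all genes. At an unadjusted p under 0.05 there were 8 higher and 4 lower, against 7.35% and 7.69% of all genes, and DESeq2 called the same numbers as edgeR, 1 and 0. The libraries of compound 1 lay all above DMSO for 13 genes and all below for 4 (10.3% and 10.6% of all genes). The gene called was MRPS21 (ENSG00000266472, chr1:150293720-150308979, plus strand), a conserved small subunit protein. It was at 79.9, 73.9 and 76.5 CPM in DMSO, 110, 95.2 and 93.5 CPM with compound 1 and 60.0, 59.6 and 60.5 CPM with SCH772984. The 3 groups were fully separated, with opposite directions for the inhibitors: 0.38 ± 0.08 (adjusted p = 0.0464) with compound 1 and -0.36 ± 0.07 (adjusted p = 3.93e-05) with SCH772984. The compound 1 call was lost on leaving out any 1 library other than compound 1 replicate 1, with values of 0.35 to 0.42, and when only protein-coding genes were fitted.

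The next smallest p-values with compound 1 belonged to genes that did not pass. On the higher side these were MRPS6, MRPL32 (0.22 ± 0.08, adjusted p = 0.189) and MRPL27 (0.33 ± 0.12, adjusted p = 0.206), and on the lower side MRPS30 (-0.20 ± 0.07, adjusted p = 0.211), MRPL49 (-0.21 ± 0.08, adjusted p = 0.249), MRPL4 (-0.19 ± 0.08, adjusted p = 0.271) and MRPS12 (-0.23 ± 0.11, adjusted p = 0.329). MRPS12, a protein of the decoding centre, shows how 1 library widened the group: it was at 87.8, 64.4 and 63.5 CPM with compound 1 and 83.6, 89.4 and 80.5 CPM in DMSO. Of the role groups, the largest values with compound 1 were MRPL27 in the central protuberance, MRPS18C among its paralogs (0.23 ± 0.12), MRPL22 near the tunnel exit (0.17 ± 0.10) and MRPL10 in the stalk (-0.06 ± 0.09). By library, the median difference of the 77 genes from the DMSO mean was 0.12, -0.08 and 0.00 for compound 1 replicates 1, 2 and 3, and -0.46, -0.56 and -0.51 for SCH772984. Without compound 1 replicate 1, MRPS21 and MRPL32 were called higher and MRPS2, MRPS12, MRPL4, MRPL37 and MRPS30 lower, 2 and 5 genes, beside 3.46% and 6.1% of all genes tested without that library, so these counts follow the background.

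Set directly against compound 1, SCH772984 again gave lower levels. Of 77 genes, 62 were lower and 2 higher, beside 32.6% and 33.7% of all tested genes, and the median was -0.54. At an unadjusted p under 0.05 there were 63 lower and 3 higher (33.8% and 35.2% of all genes), and the libraries were all below for 61 genes and all above for 2 (34.1% and 35.3%). The adjusted lower calls were 40 of 49 in the large and 22 of 28 in the small subunit. The lowest were MRPL12 (-1.30 ± 0.12, adjusted p = 1.24e-08), MRPL3 (-1.21 ± 0.08, adjusted p = 9.6e-11), MRPL58 (-1.15 ± 0.12, adjusted p = 2.4e-08) and MRPS23 (-1.15 ± 0.10, adjusted p = 1.3e-09). The 2 higher were MRPL53 (0.89 ± 0.30, adjusted p = 0.0135) and MRPS6 (0.57 ± 0.10, adjusted p = 4.16e-05). The MRPL53 call was lost without SCH772984 replicate 2 (0.55) and without compound 1 replicate 3 (0.65). MRPS21, which the inhibitors moved apart, differed by -0.73 ± 0.09 (adjusted p = 8.45e-07).

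Most genes for proteins of the same ribosome that carry other names fell with SCH772984. The counts of the lists named here stand beside 35.5% of all tested genes lower and 37.2% higher. Of 5 such genes, 4 fell: AURKAIP1 by 0.91, GADD45GIP1 by 0.75, DAP3 by 0.68 and PTCD3 by 0.39 on the log2 scale, while CHCHD1 was at -0.18 ± 0.09 (adjusted p = 0.0774). Of 26 assembly factors, 19 fell and 2 rose (median -0.47), with the largest changes in NGRN, MRM3 and MRM2, which modify or bind the large subunit rRNA (-1.15 ± 0.12, -1.15 ± 0.10 and -1.14 ± 0.09). Among 18 translation factors, 12 fell and 2 rose (median -0.38). MTIF2, the initiation factor that brings the first tRNA to the ribosome, went from 70.9, 70.0 and 72.7 CPM in DMSO to 21.5, 20.5 and 20.4 CPM (-1.78 ± 0.09, adjusted p = 1.17e-22). The next were PDF, which deformylates new chains (-1.27 ± 0.13), and the release factor MTRF1L (-1.21 ± 0.14). Of 20 mitochondrial tRNA synthetases and related enzymes, 10 fell and 2 rose (median -0.22), with MARS2 at -1.90 ± 0.11, VARS2 at 0.97 ± 0.07 and EARS2 at -0.95 ± 0.10.

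Among 10 genes of mitochondrial DNA replication and transcription, 6 fell and 1 rose (median -0.58). The helicase gene TWNK was at -1.69 ± 0.13 and TFAM, which packages mitochondrial DNA and starts its transcription, at -1.41 ± 0.07, while MTERF2 was at 1.13 ± 0.17. Of 8 nuclear regulators tested, 7 fell (median -1.16), led by ESRRA (-2.03 ± 0.09), MYC (-1.57 ± 0.06) and PPRC1 (-1.19 ± 0.07), and PPARGC1A was too low to test. Cytosolic ribosomal proteins, with paralogs taken in by symbol, had 53 lower and 4 higher of 83 tested (median -0.24). The changes were -1.04 ± 0.11 in RPL22L1 and -0.90 ± 0.06 in RPL7L1, which are such paralogs. Counts of this list are uncertain because of near-identical pseudogenes. Nuclear genes of the respiratory chain and of ATP synthase had 28 lower and 17 higher of 75 (median -0.03), a share of lower calls near that of all genes. Among them were ATP5IF1, an inhibitor of ATP synthase and not a subunit (1.03 ± 0.07), NDUFA13 (0.95 ± 0.26) and CYC1 (-0.77 ± 0.06). Of the 13 mitochondrially encoded mRNAs, 10 rose and 1 fell (median 0.54), with the largest rises in MT-ND6 (0.89 ± 0.20), MT-ND4 (0.83 ± 0.11) and MT-CO1 (0.75 ± 0.07). With compound 1, 0 genes of these lists were called except RPL35A, a cytosolic ribosomal protein (0.31, adjusted p = 0.0383), and all list medians lay between -0.09 and 0.11.

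Level and change were related across genes, as in the whole transcriptome. Over the 77 genes, the change with SCH772984 correlated with the log2 CPM in DMSO at r = -0.44 (Spearman -0.39), beside -0.52 over 13834 genes, and the 2 measures share the DMSO libraries. The correlation with gene length was 0.20, beside 0.015 over all genes, and with GC content -0.18, beside 0.11. For compound 1 it was -0.41 with GC content, beside -0.13 over all 12849 genes tested. These are correlations across genes of the same libraries and carry no test. Among processed copies in the genome, 75 pseudogenes named for these genes are annotated, and their counts reached 8.27% of the parent's for MRPS31 and 2.07% for MRPL45, the 2 largest shares.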

How the data were processed

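RNA-seq libraries of MIA PaCa-2 cells, 3 per condition, were compared from 1 deposited table of read counts per gene. The values are whole-number counts that the authors deposited without normalization. According to the submitters' processing notes, reads went through HISAT2 2.0.5 and featureCounts 1.5.0-p3, and strand setting and treatment of ambiguous reads are not given in the sources used here. All 58735 genes matched GENCODE 29 (GRCh38) by identifier, start and end.

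Libraries were grouped by their labels. Each comparison was fitted over its own 6 libraries with edgeR 4.0.16 in R 4.3.3 (quasi-likelihood test, robust, TMM, filterByExpr with a minimum count of 10 and a minimum total of 15), without covariates. P-values were Benjamini-Hochberg adjusted over all genes tested. In simulated counts in which 200 genes were shifted by a log2 fold change of 1, 85.5% of those passing the filter were called for SCH772984 against DMSO. Far fewer genes were shifted there than were called in the data. The shift was also larger than the members' median of -0.53, so this share is not the sensitivity for these genes. With 3 libraries per group and at least 9464432 counts each, the SE of a member's log2 fold change was 0.06 to 0.32 over the 3 comparisons.

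The members and lists were chosen with earlier results of these data known, and no list was tested as a set. Named genes were the 8 lowest and 8 highest called against each control, made up to 4 by smallest p where fewer were called, the 4 lowest and highest in the direct comparison, the 5 highest and lowest levels, members that failed the filter, the largest changes per role group and a few structural exceptions. Levels between genes were divided by the deposited gene length. Promoters came from RefSeq (69 of 78 matched). Alternatives changed scaling, filter, tool (DESeq2 1.42.0), gene set, libraries, block, and trends with gene length and GC content. Replicate numbers were not taken as pairs: correlations of same-numbered libraries were -0.08 to 0.11, not all over 0.1.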

Additional observations from a re-analysis of the deposited data

How the results depend on the processing

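With SCH772984 against DMSO, 54 of the 64 lower calls remained under every alternative that keeps the threshold, and those lost under at least 1 were MRPL13, MRPL28, MRPL32, MRPL33, MRPL34, MRPL43, MRPL44, MRPL45, MRPL52 and MRPS9. Of the 3 higher calls, MRPS6 remained in all. Against compound 1, 50 of 62 lower calls remained and, of the higher, MRPL53 was lost on leaving out either of 2 libraries. With a 2-fold minimum, 8 were lower and 0 higher against DMSO, 5 and 0 against compound 1, and 0 higher with compound 1. Over all genes 10.6% and 10.1% were lower by that measure in the first 2 comparisons, so at 2-fold the lower calls were not above the background. The median against DMSO was -0.35 with library size alone, -0.45 with at least 10 counts in every library, -0.65 with the length trend removed and -0.59 with length and GC trends removed, an alternative added after seeing the data, which also put the large minus small difference at -0.092. Against compound 1 it was -0.40, -0.46 and -0.61 under the first 3 of these. The large to small ratio relative to DMSO was 0.962 with genes weighted equally and, added after seeing the data, 0.958 without MRPL3, 0.975 without MRPS6 and 1.007 without both.

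Leaving out 1 library at a time gave 60 to 64 lower and 2 to 3 higher with SCH772984 against DMSO, and medians of -0.55 to -0.51. It also gave large minus small differences of -0.041 to 0.0047, beside -0.023 with all libraries, and the sign changed without DMSO replicate 1. Against compound 1 it gave 56 to 62 lower, 1 to 3 higher, and large minus small differences of -0.043 to 0.056. With compound 1 against DMSO it gave 0 to 2 higher and 0 to 5 lower, medians of -0.02 to 0.08, and large minus small differences of -0.023 to 0.019. The 2 and 5 came without compound 1 replicate 1, where calls over all genes went from 63 higher and 48 lower to 453 and 798. The number called with compound 1 was also 0 higher with protein-coding genes only, 8 higher and 4 lower with an unadjusted p, and 1 lower (MRPS30) with length and GC trends removed. Without members sharing over 20% of exon bases, a set chosen after seeing the data, 55 of 64 were lower and 2 higher against DMSO, and 53 lower and 1 higher against compound 1. The cause of these shifts was not tested. With the replicate number as a block, 62 were lower and 3 higher against DMSO, 61 and 2 against compound 1, and 1 higher with compound 1, so the block moved no count of these genes by over 1.5 times, while calls over all genes with compound 1 went to 193 higher and 219 lower (1.5% and 1.7%).

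Precision is limited by 3 libraries per group and, for MRPL53, MRPS28, MRPL23, MRPL38 and MRPL46, by fewer than 10 CPM.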
